A study of Homo sapiens with 9 samples.

Results

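RNA of SKOV3 cells, an ovarian cancer cell line with high ERBB2, was sequenced in 3 groups of 3 libraries, and the metallothionein genes were followed through them. The first group expressed WT CDK9, the second expressed WT CDK9 and received an ALK inhibitor for 24 h, and the third expressed CDK9 with Tyr19 changed to Phe (Y19F in the labels, Tyr19Phe CDK9 here), without inhibitor. CDK9 is the kinase of the elongation factor P-TEFb, and Tyr19 is the residue that the study followed as a target of the tyrosine kinase ALK. The study describes its WT and Tyr19Phe CDK9 cells as stable lines that re-express the protein after depletion of endogenous CDK9, a background that all 3 groups would share. How many lines of each form were sequenced is not given in the sources used here, so a line and its CDK9 form cannot be told apart. Neither the inhibitor nor its dose is named for this experiment in the sources used here.

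The rows were found by gene symbol: the structural metallothioneins MT2A, MT1X, MT1F, MT1E, MT1G and MT1M, and MTF1, the regulator of the family. All 7 were found in the table of 58735 genes, each in 1 row, and 4 of them (MT2A, MT1X, MT1F and MTF1) had enough counts to be tested with 16350 genes in all. Metallothioneins are small cysteine-rich proteins that hold zinc, copper and cadmium in clusters of thiolates. Their genes are transcribed when zinc or cadmium enters the cell and respond to glucocorticoids and oxidative stress. MTF1 is a zinc finger transcription factor that senses free zinc and binds short metal response elements in metallothionein promoters, and it also drives SLC30A1, the zinc exporter of the plasma membrane.

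The 6 structural genes lie within 76 kb of 1 cluster on chromosome 16, and MTF1 lies on chromosome 1 (chr1:37809567-37859620, minus strand, ENSG00000188786, positions of the deposited table, hg38). MT2A (ENSG00000125148) is the first of the 6 at chr16:56608199-56609497 on the plus strand, and MT1X (ENSG00000187193) is the last at chr16:56682424-56684196 on the plus strand. Between them lie MT1E (ENSG00000169715, chr16:56625475-56627112, plus), MT1M (ENSG00000205364, chr16:56632233-56633986, plus), MT1F (ENSG00000198417, chr16:56657694-56660698, plus) and MT1G (ENSG00000125144, chr16:56666731-56668065, minus). All 7 are annotated as protein-coding, and the values below are reads counted per gene.

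The core of the metal response element was searched as the letters TGCACNC and TGCGCNC on both strands in the 250 bases before the transcription start, taken from RefSeq (GRCh38.p14). The table of promoters held MT2A, MT1X and MTF1 among the 7 genes. The promoters of the MT2A and MT1X genes, whose RNA was higher in Tyr19Phe CDK9 cells, are shown first, followed by that of MT1H, a gene of the same cluster with no count in any library. Capitals mark the matches, read on the plus strand of the gene (chr16:56608334-56608583 for MT2A, chr16:56682220-56682469 for MT1X and chr16:56669564-56669813 for MT1H, all on the plus strand).
MT2A: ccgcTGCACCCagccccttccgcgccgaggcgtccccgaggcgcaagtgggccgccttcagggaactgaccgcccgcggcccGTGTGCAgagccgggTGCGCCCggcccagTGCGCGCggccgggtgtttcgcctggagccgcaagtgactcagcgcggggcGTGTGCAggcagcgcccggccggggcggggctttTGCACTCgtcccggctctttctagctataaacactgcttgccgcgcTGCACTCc
MT1X: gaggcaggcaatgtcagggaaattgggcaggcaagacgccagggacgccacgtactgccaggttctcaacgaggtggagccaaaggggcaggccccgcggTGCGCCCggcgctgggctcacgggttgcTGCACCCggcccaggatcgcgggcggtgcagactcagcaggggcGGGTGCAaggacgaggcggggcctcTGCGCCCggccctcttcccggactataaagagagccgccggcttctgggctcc
MT1H: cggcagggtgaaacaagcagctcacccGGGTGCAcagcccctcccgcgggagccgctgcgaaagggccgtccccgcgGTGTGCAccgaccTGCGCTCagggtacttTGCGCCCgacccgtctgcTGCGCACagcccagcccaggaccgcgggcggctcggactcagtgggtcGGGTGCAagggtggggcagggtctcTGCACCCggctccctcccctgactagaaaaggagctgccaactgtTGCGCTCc
MT2A held 7 matches, 5 of TGCACNC and 2 of TGCGCNC, and MT1X held 4, with 2 of each. MT1B and MT4, further metallothionein genes of chromosome 16 with 16 and 0 counts in total, held 3 matches each. MT1H, with no count, held 8, so with MT1H included the number of matches did not order these promoters by the RNA counted. With up to 2 mismatches allowed, other family transcripts shared 30.9% of the 50-base windows of MT1H and 6.35% at 100 bases. Its count of 0 may thus reflect lost reads with several matches, which was not tested. The MTF1 promoter held 0 matches. Of 35116 promoters of this length, 24.8% held at least 1 match, 0.37% held at least 4 and 0.0313% held at least 7. The letters TATAAA were found on the gene's strand in the MT2A, MT1X, MT1B and MT4 promoters, not in that of MT1H, and in 6.8% of all promoters. None of these matches was tested for binding here.

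The libraries held 18939449 to 19731228 counts in the WT CDK9 group, 18169050 to 20974903 with the ALK inhibitor and 26485891 to 29320184 in the Tyr19Phe CDK9 group, which was the most deeply sequenced. Levels are given as CPM (counts per 1000000, scaled by TMM factors of 0.986 to 1.01). CDK9 itself was read at 48.6 ± 1.03 CPM (SD, n = 3) in WT CDK9 cells, 45.6 ± 1.77 with the inhibitor and 55.0 ± 3.94 in Tyr19Phe CDK9 cells. Gene counts cannot separate WT from Tyr19Phe CDK9 or endogenous from re-expressed RNA, so this does not check the labels. ALK had at most 5 counts in any library. Of the markers of the line, ERBB2 (1381 to 2634 CPM), KRT8 (1260 to 1726 CPM) and PAX8 (257.5 to 281.4 CPM) were high in all 9 libraries, EPCAM was read at 9.72 to 23.0 CPM and MUC16 at no more than 9 counts. Within the line markers, ERBB2 had a mean of 1800 CPM in WT CDK9 cells, 2625 with the inhibitor and 1470 in Tyr19Phe CDK9 cells. In the same order KRT19 had 245.6, 284.5 and 103.9 CPM, and EPCAM had 21.19, 20.91 and 11.97 CPM. KRT8 had 1307, 1306 and 1695 CPM, KRT18 had 134.7, 148.7 and 176.7 CPM, and PAX8 had 269.6, 263.1 and 266.3 CPM. Of 6 tested line markers, edgeR called 2 higher and 3 lower in Tyr19Phe CDK9 cells. With the inhibitor it called 2 higher and 0 lower. The 6 markers of blood and endothelial cells summed to at most 1.07 CPM in any library, and LYZ was at 0 throughout. In bulk RNA, fewer cells with a transcript and less of it per cell cannot be told apart.

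In Tyr19Phe CDK9 cells the 2 most abundant metallothioneins rose: MT2A to 1.69 times and MT1X to 2.53 times the level of WT CDK9 cells. With the ALK inhibitor MT2A fell to 0.796 times that level, and MT1X and MT1F did not pass the test. MTF1 passed the test in neither comparison. MT1E and MT1M had no count in any of the 9 libraries, and MT1G had 1 count in all.

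MTF1, the regulator, was detected in every library. Its counts were 734, 633 and 692 in the WT CDK9 libraries, 762, 728 and 697 with the ALK inhibitor, and 1218, 1135 and 1114 in the Tyr19Phe CDK9 libraries. Scaled for depth these were 36.0 ± 2.29, 37.4 ± 2.25 and 41.2 ± 0.817 CPM (SD, n = 3 each). The 3 Tyr19Phe CDK9 libraries, between 40.4 and 42.0 CPM, lay above all other libraries, of which an inhibitor library at 39.98 CPM came closest. How many of all tested genes separated in this way was not counted. The log2 difference from WT CDK9 was 0.19 (SE 0.086, 95% interval 0.021 to 0.37), with an adjusted p of 0.117 in edgeR's quasi-likelihood test with Benjamini-Hochberg adjustment over all tested genes. With the inhibitor the log2 difference was 0.05 (SE 0.088, interval -0.12 to 0.23, adjusted p = 0.868). An increase of MTF1 RNA by more than 1.29-fold in Tyr19Phe CDK9 cells lies outside the interval.

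MT2A, the major metallothionein of most human cells, made up nearly all metallothionein RNA. It had 5844, 6785 and 5980 counts in the WT CDK9 libraries, 5409, 4967 and 4816 with the inhibitor, and 16836, 15096 and 14444 in the Tyr19Phe CDK9 libraries. On the CPM scale the WT CDK9 libraries stood at 299.8, 358.1 and 319.6, the inhibitor libraries at 256.7, 272.8 and 248.8, and the Tyr19Phe CDK9 libraries at 570.1, 537.3 and 544.9. The 3 groups did not overlap, and the share of all tested genes with such a separation was not counted. The ALK inhibitor group was the lowest of them and the Tyr19Phe CDK9 group the highest, with 326 ± 29.6, 259.5 ± 12.2 and 551 ± 17.2 CPM (SD, n = 3 each).

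MT2A rose in Tyr19Phe CDK9 cells by a log2 value of 0.76 (SE 0.047, 1.69-fold, 95% interval 1.58 to 1.81) at an adjusted p of 5.07e-15 in edgeR's test. It was rank 28 of 16350 by p in that comparison, and 4.37% of tested genes had a higher log2 fold change. With the inhibitor MT2A fell by 0.33 on the log2 scale (SE 0.048, 0.796-fold, interval 0.745 to 0.852) at an adjusted p of 6.7e-06, at rank 126. The labels do not say whether the 3 libraries of a group came from separate cultures, so these p-values measure the spread between libraries, which may be technical.

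MT1X, a further zinc-binding isoform of the cluster, was read at a small fraction of MT2A. Its counts were 94, 98 and 73 in the WT CDK9 libraries, 108, 56 and 87 with the inhibitor, and 329, 291 and 362 in the Tyr19Phe CDK9 libraries. These corresponded to 4.63 ± 0.656, 4.23 ± 1.05 and 11.7 ± 1.72 CPM (SD, n = 3 each). The lowest Tyr19Phe CDK9 library, at 10.4 CPM, was above the highest of the other 6, at 5.17 CPM, while the WT CDK9 and inhibitor libraries overlapped. Here too the share of all tested genes with such a separation was not counted. MT1X rose in Tyr19Phe CDK9 cells by a log2 value of 1.34 (SE 0.20, 2.53-fold, interval 1.90 to 3.36, adjusted p = 2.5e-06), at rank 441 by p, and 0.997% of tested genes had a higher log2 fold change. With the inhibitor the log2 difference was -0.12 (SE 0.22, interval -0.56 to 0.31, adjusted p = 0.873), and without inhibitor replicate 2 it was 0.06.

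MT1F was near the limit of what these libraries could measure. It had 0, 13 and 20 counts in the WT CDK9 libraries, 18, 10 and 8 with the inhibitor, and 34, 38 and 57 in the Tyr19Phe CDK9 libraries. The corresponding CPM values were 0, 0.686 and 1.07, then 0.854, 0.549 and 0.413, then 1.15, 1.35 and 2.15. All 3 Tyr19Phe CDK9 libraries were above all others, but the WT CDK9 libraries ranged from no count to nearly the lowest of them. Again, the share of all tested genes with such a separation was not counted. The log2 difference between Tyr19Phe and WT CDK9 was 1.40 (SE 0.68, interval 0.030 to 2.78), with an adjusted p of 0.161. Without the WT CDK9 library with no count it was 0.82 (adjusted p = 0.465), and without WT CDK9 replicate 3 it was 2.17 (adjusted p = 0.0706). With the inhibitor it was 0.06 (SE 0.72, adjusted p = 0.987), and turned to -0.52 without the same WT CDK9 library and to -0.27 without inhibitor replicate 1. The 3 Tyr19Phe CDK9 libraries alone would have carried MT1F past the filter on low counts. WT CDK9 replicates 2 and 3 and inhibitor replicates 1 and 2 also held at least 10 counts.

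MT1E and MT1M, both zinc-inducible genes of the cluster, were at 0 in all 9 libraries. MT1G had 1 count, in inhibitor replicate 2, and 0 in the other 8 libraries. A floor of 3 counts corresponded to between 0.102 and 0.165 CPM by library, so levels below that could not be seen at this depth, and this floor covers counting error only. No fold change is given for these 3 genes.

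**Figure D1:**
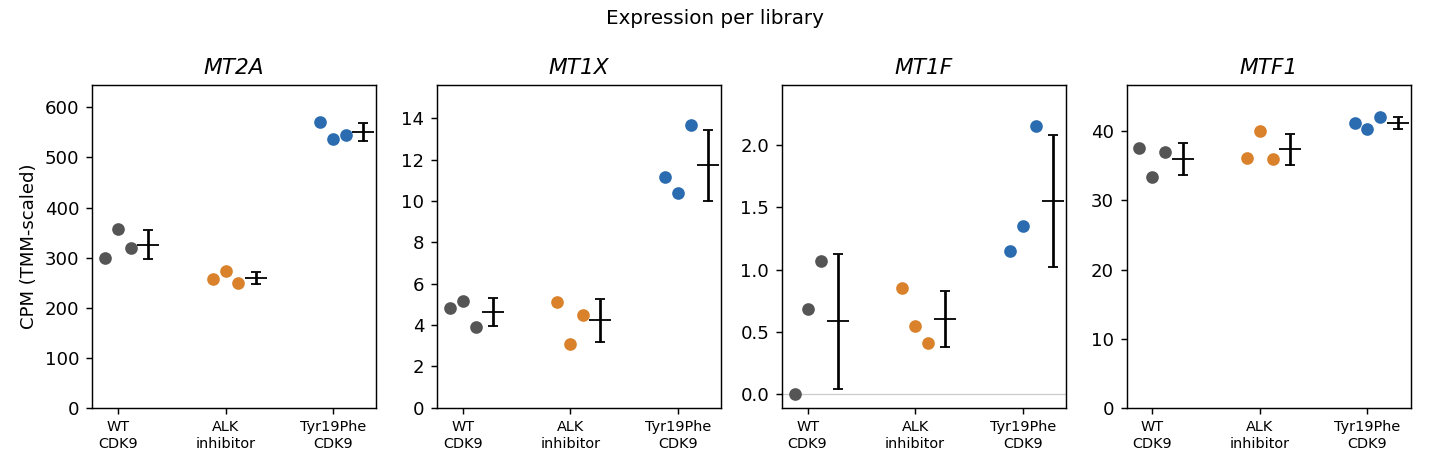
TMM-scaled CPM of MT2A, MT1X, MT1F and MTF1 (y axis, from 0, with its own scale for each gene) in each library of the 3 groups (x axis). Points are libraries, and the bar with its whiskers is the mean ± SD of 3. The Tyr19Phe CDK9 points are above all others in each panel, and the inhibitor points of MT2A are below those of WT CDK9. MT1F and MTF1 did not pass edgeR's test in any comparison. The share of all tested genes with such a separation was not counted.

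Of the 6 structural genes, 3 were tested (MT2A, MT1X and MT1F), and MT1E, MT1G and MT1M could not be called. MT2A and MT1X, 2 of the 3 tested, were called higher in Tyr19Phe CDK9 cells, where 7.79% of all tested genes were called higher. None was called lower by edgeR, at an unadjusted p under 0.05 or by DESeq2 (0 in each), where 10.6% of tested genes were called lower. With the ALK inhibitor 1 of the 3, MT2A, was called lower, where 2.89% of tested genes were called lower, and none was called higher by edgeR, at an unadjusted p under 0.05 or by DESeq2 (0 in each), where 1.93% were. Scaling by library size alone turned the split of all inhibitor calls from 316 higher and 472 lower to 430 higher and 369 lower, and MT2A was called lower under both. For Tyr19Phe CDK9 it turned from 1273 higher and 1726 lower to 1573 and 1465 with library size alone, and to 1508 and 1504 with the upper quartile, and MT2A and MT1X were called higher under all 3 scalings. The median log2 fold change over all tested genes was -0.00103 with the inhibitor and 0.00346 in Tyr19Phe CDK9 cells.

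The direct contrast of the Tyr19Phe CDK9 and inhibitor groups asked whether the family stood differently in them, and both abundant genes did. MT2A was 2.12-fold higher in Tyr19Phe CDK9 cells than with the inhibitor (log2 1.09, SE 0.047, adjusted p = 1.52e-19) and MT1X 2.75-fold higher (log2 1.46, SE 0.21, adjusted p = 4.31e-07). MT1F (log2 1.34, SE 0.68, adjusted p = 0.167) and MTF1 (log2 0.14, SE 0.086, adjusted p = 0.267) did not pass. Thus 2 of the 3 tested structural genes were called higher, where 9.65% of tested genes were, and none lower (0 also at an unadjusted p under 0.05 and by DESeq2), where 11.3% were. The contrasts against WT CDK9 share the same 3 WT CDK9 libraries.

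**Figure D2:**
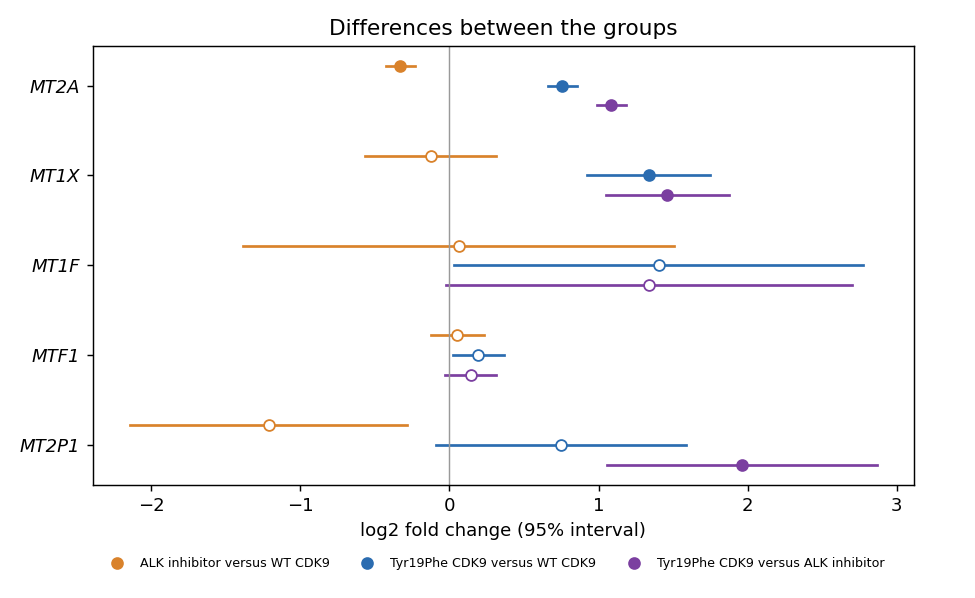
Log2 fold change with its 95% interval (x axis) of MT2A, MT1X, MT1F, MTF1 and the pseudogene MT2P1 (y axis) in the 3 comparisons. Filled points passed an adjusted p of 0.05 in edgeR's test, and open points did not. For MT2A the intervals lie on opposite sides of 0 with the inhibitor and in Tyr19Phe CDK9 cells, and the intervals of MT1F are wider than those of MT2A, MT1X and MTF1.

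Per kb of listed length, MT2A stood at 250.8 ± 22.8 CPM in WT CDK9 cells, MTF1 at 4.49 ± 0.285, MT1X at 2.61 ± 0.370 and MT1F at 0.310 ± 0.287 (SD, n = 3). In Tyr19Phe CDK9 cells the order MT2A, MT1X, MTF1, MT1F was seen instead, with levels per kb of 424 ± 13.2, 6.61 ± 0.973, 5.14 ± 0.102 and 0.821 ± 0.280 CPM. The 3 levels below MT2A were not tested against each other. The deposited length of MT2A is 1299 bases, its span starting upstream of the RefSeq start, against 914 exon bases in GENCODE release 44. With the GENCODE length MT2A stood at 356.5 CPM per kb in WT CDK9 cells, and the order did not change.

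The 6 structural genes together took 331 ± 30.1 CPM in WT CDK9 cells, 264 ± 11.4 with the inhibitor and 564 ± 16.9 in Tyr19Phe CDK9 cells (SD, n = 3 each). MT2A was between 97.2% and 98.7% of these counts in every library. The share of MT1X was 1.40 ± 0.191% in WT CDK9 cells, 1.61 ± 0.442% with the inhibitor and 2.08 ± 0.310% in Tyr19Phe CDK9 cells. Per library the MT1X share was 1.58%, 1.42% and 1.20% in WT CDK9 cells, 1.95%, 1.11% and 1.77% with the inhibitor, and 1.91%, 1.89% and 2.44% in Tyr19Phe CDK9 cells. The inhibitor libraries spanned most of this range, and 1 of them lay above 2 of the Tyr19Phe CDK9 libraries, so this share separated Tyr19Phe CDK9 from WT CDK9 libraries only. The number of MT2A counts per MT1X count was 71.1 ± 10.0, 64.7 ± 20.9 and 47.6 ± 6.72.

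Beyond the 6 genes, the table held further metallothionein rows, 21 with such a symbol in all, of which 16 lie on chromosome 16 and 12 are protein-coding. Of the 21, 11 had no count in any library, among them MT1A, MT1H and MT4, and 5 had between 1 and 10 counts in total. MT1B, a protein-coding gene of the cluster, had 16 counts in total, with 7 in inhibitor replicate 2 and 7 in Tyr19Phe CDK9 replicate 3. MT3, known for its expression in brain, had 4 counts, all in Tyr19Phe CDK9 replicate 2. MT2A and MT1X, at the ends of the 76 kb of the 6 listed genes, were thus the most abundant, with genes at 0 between them. MT3 and MT4 lie outside that span, at lower coordinates than MT2A.

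**Figure D3:**
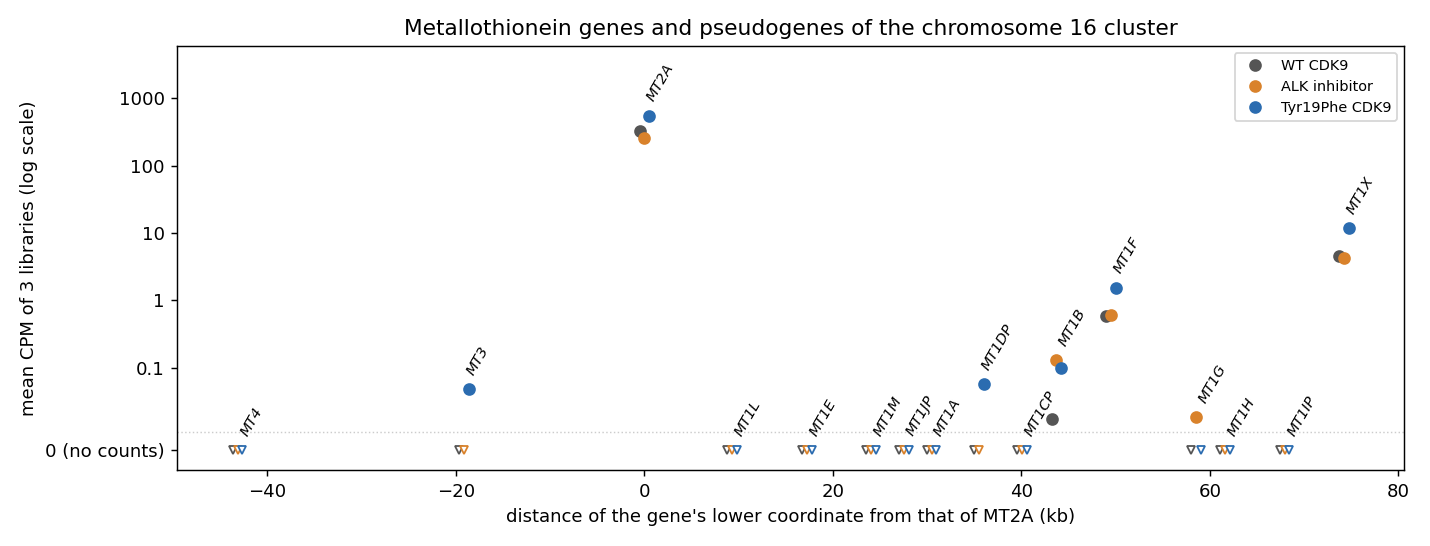
Mean CPM of 3 libraries (y axis, log scale, with values of 0 drawn as open triangles on a line of their own) of each metallothionein gene or pseudogene of chromosome 16 against the distance of its lower coordinate from that of MT2A in kb (x axis). Colours are the 3 groups. MT2A, MT1X and MT1F stand out, and MT1E, MT1M, MT1A and MT1H are at 0 in every group.

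MT2P1, a processed pseudogene of MT2A on chromosome 4 (chr4:68376323-68376505, plus strand, ENSG00000162840), was the other metallothionein row with enough counts to be tested. It had 22, 35 and 27 counts in the WT CDK9 libraries, 13, 12 and 12 with the inhibitor, and 71, 67 and 70 in the Tyr19Phe CDK9 libraries. It was not called against WT CDK9 in Tyr19Phe CDK9 cells (log2 0.75, SE 0.42, adjusted p = 0.236) or with the inhibitor (log2 -1.21, SE 0.46, adjusted p = 0.149), and was higher in the direct contrast (log2 1.96, SE 0.45, adjusted p = 0.00099). Its sequence is identical to MT2A at 178 of 183 bases (97.3%). With up to 2 mismatches allowed, MT2A shared 91.8% of its 50-base windows, 66.7% at 100 bases and 5.88% at 150 bases. As the read length is not given in the sources used here, MT2P1 counts cannot be told apart from misplaced MT2A reads. There were 4.48 ± 0.697 MT2P1 counts per 1000 MT2A counts in WT CDK9 cells, 2.44 ± 0.0481 with the inhibitor and 4.50 ± 0.319 in Tyr19Phe CDK9 cells (SD, n = 3).

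Members of the family also resemble each other, which bears on how reads were divided among them. With up to 2 mismatches allowed, 34.9% of the 50-base windows of MT1E, 32.4% of MT1M and 29.2% of MT1G were shared with another family transcript, against 9.13% of MT2A, 4.65% of MT1X and 3.02% of MT1F. At 100 bases these shares were 3.86% for MT1E, 7.94% for MT1G, 0.124% for MT2A and 0 for MT1M, MT1X and MT1F, and at 150 bases they were 0 for all 6. The read length and the treatment of reads with several matches are not given in the sources used here, and their part in the counts of MT1E, MT1M and MT1G was not tested. MT1X also shares 321 of its 1727 exon bases (18.6%) with AC026461.1, a gene of the same strand at 0 counts in every library.

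The neighbours of the cluster were read to see whether the region moved as a whole. Of 23 tested genes within 1 Mb, 4 were called higher and none lower in Tyr19Phe CDK9 cells (1 lower at an unadjusted p under 0.05, 0 by DESeq2), with a median log2 fold change of 0.0769. Over all tested genes 7.79% were called higher and 10.6% lower. The 4, named after their values were seen, were NLRC5 (log2 0.66), HERPUD1 (log2 0.46), OGFOD1 (log2 0.18) and CPNE2 (log2 0.17). The nearest tested genes on either side were not called in Tyr19Phe CDK9 cells: BBS2, a protein of the ciliary BBSome, had a log2 difference of 0.10 (SE 0.098, adjusted p = 0.549), and NUP93, a nuclear pore protein, one of 0.13 (SE 0.053, adjusted p = 0.0938). NUP93 passed the threshold in 4 of 17 alternative analyses, with log2 values up to 0.19. With the inhibitor edgeR and DESeq2 each called 2 of the 23 higher and 0 lower, as did an unadjusted p under 0.05, with a median of -0.0112, where 1.93% of all tested genes were called higher and 2.89% lower. Around MTF1, 1 of 15 tested genes was called, EPHA10, which was lower in Tyr19Phe CDK9 cells (log2 -1.13) and with the inhibitor (log2 -0.58).

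Other genes of zinc handling were called in both directions in Tyr19Phe CDK9 cells. SLC30A1, the plasma membrane zinc exporter driven by MTF1, fell in Tyr19Phe CDK9 cells from 113.5 ± 3.20 to 95.1 ± 2.63 CPM (log2 -0.25, SE 0.055, adjusted p = 0.000564), and stood at 112.9 ± 3.20 CPM with the inhibitor (log2 -0.00749, SE 0.055, adjusted p = 0.976). Of 6 tested zinc exporters, 2 fell and none rose in Tyr19Phe CDK9 cells by edgeR (0 higher also at an unadjusted p under 0.05 and by DESeq2), against 10.6% and 7.79% of all tested genes. The other was SLC30A9, a mitochondrial zinc transporter (log2 -0.22, SE 0.054, adjusted p = 0.00192). The median of the 6 was 0.0196 beside 0.00346 over all tested genes. Of 11 tested zinc importers, 1 rose, SLC39A13 of the secretory pathway (log2 0.25, SE 0.065, adjusted p = 0.00386), and 1 fell, SLC39A14, an importer of zinc, iron and manganese (log2 -0.21, SE 0.051, adjusted p = 0.00182), with a median of 0.00434. With 1 of 11 in each direction, the importers were called about as often as all tested genes. With the inhibitor none of these transporters was called by edgeR or DESeq2 in either direction (3 importers higher and 2 lower at an unadjusted p under 0.05, and 0 exporters), with medians of 0.0725 for exporters and 0.0656 for importers.

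Genes of copper handling were lower where they were called. In Tyr19Phe CDK9 cells 3 of 10 tested genes fell and none rose by edgeR (0 higher also at an unadjusted p under 0.05 and by DESeq2), with a median log2 fold change of -0.156, where 10.6% of all tested genes were called lower and 7.79% higher. The copper-exporting ATPase ATP7B fell from 20.9 ± 1.82 to 14.2 ± 1.63 CPM (log2 -0.56, SE 0.13, adjusted p = 0.00119) and ATP7A from 16.2 ± 0.215 to 11.8 ± 0.218 CPM (log2 -0.46, SE 0.13, adjusted p = 0.0103). SOD1, the copper and zinc superoxide dismutase, had a log2 difference of -0.20 (SE 0.049, adjusted p = 0.00262), which did not pass without WT CDK9 replicate 2 (adjusted p = 0.0524) or without Tyr19Phe CDK9 replicate 1 (adjusted p = 0.052). With the inhibitor none of the 10 was called by edgeR, by DESeq2 or at an unadjusted p under 0.05 (0 in each), with a median of -0.000377.

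Responders to heavy metals and oxidative stress were read next. In Tyr19Phe CDK9 cells 4 of 12 rose and 3 fell, where 7.79% and 10.6% of all tested genes did, with a median of 0.0326. HMOX1, heme oxygenase 1, which is induced by heme, cadmium and oxidants, rose from 12.2 ± 1.34 to 25.4 ± 0.682 CPM (log2 1.06, SE 0.12, adjusted p = 9.98e-09). SLC7A11, the cystine importer that feeds glutathione synthesis, fell from 468 ± 16.4 to 299.9 ± 11.2 CPM (log2 -0.64, SE 0.040, adjusted p = 1.59e-16). TXNRD1 (log2 -0.33, SE 0.039) and NQO1 (log2 -0.30, SE 0.037), which reduce thioredoxin and quinones, fell as well, at adjusted p of 1.14e-08 and 3.8e-08. The other 3 that rose were the heat shock genes DNAJB1, HSPA1A and HSPA1B, named after their values were seen. With the inhibitor 2 of the 12 rose and none fell by edgeR (0 lower also at an unadjusted p under 0.05 and by DESeq2), where 1.93% of all tested genes rose and 2.89% fell, with a median of 0.0965: SLC7A11 to 541 ± 19.4 CPM (log2 0.21, SE 0.040, adjusted p = 0.000311) and HMOX1 to 17.1 ± 1.14 CPM (log2 0.49, SE 0.13, adjusted p = 0.0139). The HMOX1 call with the inhibitor was lost without WT CDK9 replicate 2 (adjusted p = 0.103), inhibitor replicate 1 (adjusted p = 0.0604) or inhibitor replicate 2 (adjusted p = 0.0534).

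The glucocorticoid receptor and its responders were read because steroids induce MT2A in many cells. In Tyr19Phe CDK9 cells 2 of 9 tested genes rose and 1 fell, where 7.79% and 10.6% of all tested genes did, with a median of 0.0769. A single gene of 9 called lower is near that background. SGK1, a kinase of ion transport, rose from 37.7 ± 1.66 to 56.7 ± 1.81 CPM (log2 0.59, SE 0.082, adjusted p = 4.17e-07) and DUSP1, a MAP kinase phosphatase, from 54.2 ± 1.98 to 67.6 ± 5.12 CPM (log2 0.32, SE 0.074, adjusted p = 0.00126). ERRFI1, an inhibitor of ERBB receptors, had a log2 difference of -0.18 (SE 0.063, adjusted p = 0.0423), and passed in 9 of 17 alternative analyses. The other 6 did not pass in Tyr19Phe CDK9 cells. FKBP5, TSC22D3 and the receptor NR3C1 had log2 differences of 0.08, 0.21 and -0.07. CEBPD, PER1 and KLF9 had 0.18, -0.17 and -0.72 (SE 0.51 for KLF9). With the inhibitor edgeR called none of the 9, with a median of -0.0318, while DESeq2 called 1 higher, and 1 was higher and 2 were lower at an unadjusted p under 0.05. Over the 5 lists, the direct contrast of Tyr19Phe CDK9 with the inhibitor called 7 genes higher and 10 lower of 48 tested. Over all tested genes 9.65% were called higher and 11.3% lower. By list, 0 were higher and 2 lower of 6 zinc exporters, 1 and 0 of 11 importers, and 0 and 3 of 10 copper genes. Of 12 stress responders 2 were higher and 4 lower, and of 9 glucocorticoid genes 4 and 1. The latter 4 were SGK1 (log2 0.80), DUSP1 (log2 0.35), FKBP5 (log2 0.31) and CEBPD (log2 0.43).

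**Figure D4:**
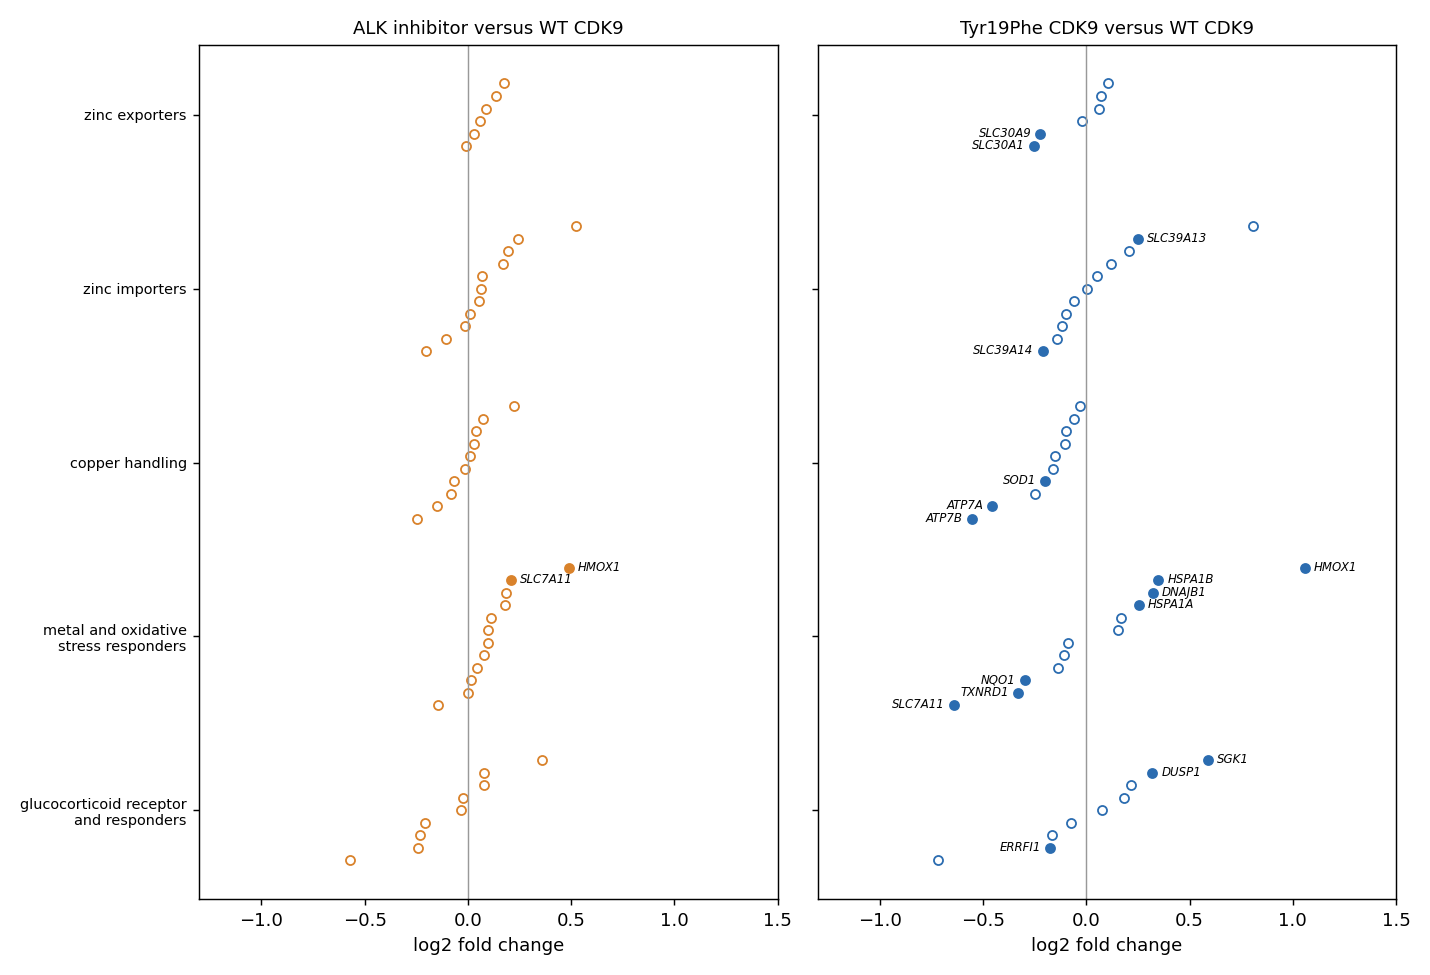
Log2 fold change (x axis) of each tested gene of the 5 lists (y axis, genes of a list stacked in order of their value) with the ALK inhibitor (left) and in Tyr19Phe CDK9 cells (right), each against WT CDK9. Filled and named points passed an adjusted p of 0.05 in edgeR's test, and open points did not. On the right the zinc exporters and copper genes called are all below 0, and HMOX1 stands farthest above it.

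The genes whose pattern was most like that of the summed structural metallothioneins were named by the Pearson correlation of log2 CPM over the 9 libraries, among 14038 tested genes of at least 1 CPM outside the family. They were NCAPH2, a condensin II subunit (r = 0.987, Spearman's rho 0.983), RCAN3, a calcineurin regulator (r = 0.986, rho 0.933), TAGLN, an actin-binding protein (r = 0.984, rho 0.917), the non-coding RNA CASC19 (r = 0.984, rho 0.95) and DRG1, a GTPase (r = 0.983, rho 0.933). The libraries of a group stand together in this measure, so it mainly follows the order of the 3 groups. In Tyr19Phe CDK9 cells their log2 fold changes were 0.28, 0.48, 0.42, 0.53 and 0.19, below those of MT2A and MT1X, and with the inhibitor -0.11, -0.13, -0.17, -0.35 and -0.08. For MTF1 they were IQGAP3 (r = 0.973, rho 0.917), RNF149 (r = 0.972, rho 0.967), TAP2 (r = 0.960, rho 0.967), FAM111A (r = 0.941, rho 0.9) and C17orf97 (r = 0.938, rho 0.817). Between MTF1 and MT2A the Pearson correlation was 0.643, and between MTF1 and MT1X it was 0.601.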

How the data were processed

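The authors extracted total RNA from SKOV3 cells, had it sequenced by a company and mapped the reads to hg38. The submitters' processing notes name CASAVA, HISAT2 2.0.5 and featureCounts 1.5.0-p3, and strand setting, read length and treatment of multiply mapped reads are not given in the sources used here. The deposited table holds raw counts of reads per gene, without normalization, with gene symbols, biotypes, positions and lengths. All 9 library columns were used, grouped by the deposited labels. The 7 genes and the lists were chosen with earlier results of these data known.

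The analysis of counts used edgeR 4.0.16 (R 4.3.3). Genes passed filterByExpr (minimum count 10, minimum total 15), libraries were scaled by TMM, and edgeR's robust quasi-likelihood fit took the 9 libraries together as 3 group means (6 residual degrees of freedom). Adjustment by Benjamini-Hochberg covered all 16350 genes of a comparison, and genes under 0.05 were called. Intervals are 95% intervals from the quasi-likelihood degrees of freedom, and log2 CPM used a prior count of 2. The smallest two-sided p of an exact permutation test of 3 against 3 libraries is 0.1, so none was run. The code was tested on simulated counts.

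Named are the 7 genes, further metallothionein rows by their counts, the 4 called genes per list and comparison of smallest adjusted p, SLC30A1, the nearest tested neighbours and the 5 genes of highest correlation. The glucocorticoid genes not called in Tyr19Phe CDK9 cells were named outside this rule. Alternatives were other scalings, DESeq2 1.42.0, other filters, protein-coding genes alone, removal of trends with gene length or GC content (the latter added after the data had been seen), a replicate block, the compared groups alone and each library left out in turn. Deviations from the group means did not go together in libraries of equal replicate number (correlations of -0.0116 to 0.026 over 9 pairs), and no pairing was used. Positions are those of the deposited table. Promoters came from RefSeq and shared windows from GENCODE release 44 transcripts, both searched in Python 3.11.15.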

Additional observations from a re-analysis of the deposited data

Results flagged for a closer look

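The effect of Tyr19Phe CDK9 differed from that of the ALK inhibitor for MT2A, MT1X and the pseudogene MT2P1, by the direct contrast in edgeR's test. The log2 difference was 1.09 (1.086) for MT2A at an adjusted p of 1.52e-19 and 1.46 (1.462) for MT1X at an adjusted p of 4.31e-07. For MT2P1 it was 1.96 (1.961) at an adjusted p of 0.00099. MT2P1 counts cannot be told apart from misplaced MT2A reads without the read length, so this may not be a result apart from MT2A. For MT2A all 3 inhibitor libraries were below and all 3 Tyr19Phe CDK9 libraries above the WT CDK9 libraries. As said above, the share of all tested genes with such a separation was not counted.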

How the results depend on the processing

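Of the structural genes, 1 was called with the inhibitor, 2 in Tyr19Phe CDK9 cells and 2 in the direct contrast under each of 17 alternatives. MT2A ranged from a log2 value of -0.38 to -0.25 with the inhibitor and from 0.70 to 0.83 in Tyr19Phe CDK9 cells, and MT1X from 1.22 to 1.43 in the latter, with every adjusted p at most 0.000368. MT1F in Tyr19Phe CDK9 cells ranged from 0.82 to 2.17 and MTF1 from 0.15 to 0.23, and neither passed under any alternative. MT1F could not be fitted with at least 10 counts in every library. Among the genes named, signs turned for inhibitor differences that were not called: MT1F (-0.5212 without WT CDK9 replicate 1, -0.2719 without inhibitor replicate 1), MT1X (-0.2853 to 0.05846 with 1 library left out, the latter without inhibitor replicate 2) and SLC30A1 (0.002776 with upper quartile scaling, 0.0182 with library size alone, -0.03037 to 0.01868 with 1 library left out), whose cause was not tested. Over all genes, 788 were called with the inhibitor, 2999 in Tyr19Phe CDK9 cells and 3425 in the direct contrast. With a replicate block these were 850, 3117 and 3510, and the block changed no call of the 7 genes; the shared numbers do not pair the libraries. Leaving out 1 library gave 536 to 652, 2285 to 2705 and 2694 to 3000. MT1F had few counts, and at this depth levels below 0.102 to 0.165 CPM could not be seen. For MT1G, MT1E, MT1M and MT1H, a level below that, no RNA and loss of reads with several matches cannot be told apart.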
